A study of Mus musculus with 3 samples.

Results

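The neighbouring genes Tbx5 and Tbx3 on mouse chromosome 5 held 47 of the 28381 regions bound by TBX5 in fetal lung. A region (peak) was counted for a gene if its summit, the position of highest signal, lay inside the gene, or if the nearest end of any RefSeq protein-coding gene within 100 kb was an end of that gene. Tbx5 had 30 such peaks and Tbx3 had 17. The peaks come from chromatin immunoprecipitation and sequencing (ChIP-seq) with an antibody to TBX5 on whole lungs of CD-1 mouse embryos, an outbred stock, at E14.5, during the branching of the airways. There were 2 ChIP libraries, from 1 whole lung each, and 1 library of input chromatin, and no mutant or treated group. Every title gives the tissue as lung, whereas the source field of ChIP library 2 and of the input says heart. All libraries are represented by 1 list of peaks, so no spread between libraries could be given, no library could be left out, and no test over samples was possible. Depth is unknown.

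Tbx5 and Tbx3 encode T-box transcription factors, which bind DNA through a shared domain, the T-box. TBX5 mostly activates its targets and is needed for heart, forelimb and lung development, while TBX3 mostly represses. Both genes are active in the mesenchyme of the fetal lung. They lie side by side, an arrangement mirrored by their paralogues Tbx4 and Tbx2 on chromosome 11, and in heart and limb each is known to be driven by enhancers spread over the surrounding sequence. Occupancy of TBX5 at its own gene is what direct autoregulation requires, but a peak list holds no expression values and cannot show it.

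Among the sequences at hand, those that bear on occupancy at starts of transcription in the pair were the RefSeq promoters (build GRCm38.p6, from 250 bases before to 50 after a start) of the long noncoding RNAs (lncRNAs) that begin inside the genes. Tbx3os1 begins inside Tbx3 and Gm5563 begins at 2 places inside Tbx5, all on the minus strand. These were the 3 of 9 annotated starts in the stretches of the 2 genes that had a TBX5 summit within 1 kb, beside 17.8% of all starts in the table, and a peak covered 2 of the 9, beside 9.94%. The 9 are lncRNA starts, while the table takes in all kinds of genes. The stretches held 12.3 (Tbx5) and 9.99 (Tbx3) peaks per 100 kb, against 1.09 over the list. The part of that density in these counts was not tested. Each of the 3 promoters is printed 5′ to 3′ on the minus strand, with the bases inside the TBX5 peak in capitals.
Tbx3os1, chr5:119671459-119671758: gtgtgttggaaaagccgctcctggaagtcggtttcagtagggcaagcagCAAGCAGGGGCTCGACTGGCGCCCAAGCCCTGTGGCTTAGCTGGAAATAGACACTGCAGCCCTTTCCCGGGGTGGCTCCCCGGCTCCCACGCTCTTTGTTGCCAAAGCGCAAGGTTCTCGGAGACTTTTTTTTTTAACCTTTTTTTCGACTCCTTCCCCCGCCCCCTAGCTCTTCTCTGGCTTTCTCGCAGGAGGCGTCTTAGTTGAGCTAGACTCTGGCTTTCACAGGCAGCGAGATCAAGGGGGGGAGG
Gm5563, start nearer the first base of Tbx5, chr5:119807607-119807906: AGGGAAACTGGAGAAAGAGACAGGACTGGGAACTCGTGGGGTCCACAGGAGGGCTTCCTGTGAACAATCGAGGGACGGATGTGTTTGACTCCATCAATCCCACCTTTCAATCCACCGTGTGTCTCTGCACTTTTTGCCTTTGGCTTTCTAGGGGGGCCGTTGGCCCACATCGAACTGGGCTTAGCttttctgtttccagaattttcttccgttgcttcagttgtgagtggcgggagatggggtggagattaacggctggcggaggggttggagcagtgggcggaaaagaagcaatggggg
Gm5563, start farther in, chr5:119831937-119832236: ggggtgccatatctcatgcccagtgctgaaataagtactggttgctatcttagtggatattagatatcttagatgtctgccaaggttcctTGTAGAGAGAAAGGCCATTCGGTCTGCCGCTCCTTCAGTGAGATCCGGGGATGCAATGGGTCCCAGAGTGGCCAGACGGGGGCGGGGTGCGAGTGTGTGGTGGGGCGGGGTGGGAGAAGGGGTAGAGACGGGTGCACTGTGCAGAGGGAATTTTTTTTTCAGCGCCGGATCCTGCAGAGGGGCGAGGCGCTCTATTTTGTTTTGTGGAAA
The consensus of T-box factors, AGGTGTGA (TCACACCT on the other strand), occurred in 0 of these 3 windows, and so did its 6-base core, GGTGTG, on either strand. The core stood in 19.0% of the 32585 promoters of the table and in 17.9% of the 3238 whose start a TBX5 peak covered, and the longer form, which contains the core, in 1.28% and 0.772%. A missing match says only that these letters are not in these windows.

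Tbx5, annotated on chromosome 5 from 119796514 to 119885220, had 24 of its 30 peaks inside the gene and the other 6 before its first base. Of all summits 52.2% lay inside a protein-coding gene, but the way peaks were counted for Tbx5 takes in its whole length. That length is the span of its RefSeq transcripts, most of them predicted models. No peak (0 of 30) lay beyond its last base. The fold enrichment over local background at the summit, a value of the authors' peak caller, ran from 3.53 to 22.0 with a median of 5.60 (quartiles 4.96 and 8.54). The median over all peaks of the list was 6.27 (quartiles 5.07 and 9.22). Of the Tbx5 peaks, 6 were strong, meaning ranked in the top 5000 of the list by −log10 q. That is 20% (exact 95% binomial interval 7.71 to 38.6%, for counting error only), beside 17.6% of all peaks, so the share of strong peaks was near that of the list. At or over 10-fold were 7 of the 30 (23.3%), beside 21.2% of all peaks.

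The strongest Tbx5 peak lay inside the annotated span of the gene, from 119834301 to 119834932, with a −log10 q of 56.9 and 17.3-fold enrichment. It ranked 1264th in the list by −log10 q. Its summit was 38.2 kb from the first base of the gene and 2.75 kb from the farther-in start of Gm5563. The first base bounds all RefSeq transcripts, most of them predicted models. Whether this peak lies on the start of a single Tbx5 transcript cannot be said. Next by −log10 q (55.7) came a peak from 119810745 to 119811823, which had the highest fold of the locus (22.0) and, at 1079 bp, its greatest width. The peak from 119800303 to 119800843 followed, with a −log10 q of 41.1 and 13.95-fold enrichment. The other 3 strong peaks had folds of 17.1, 14.7 and 10.6. Of the 6 strong peaks, 5 lay inside the gene, and all 6 fell within 58.1 kb. The remaining 24 peaks ranged from 3.53 to 10.95-fold with a median of 5.32. Over all peaks of the list that were not strong the median was 5.76.

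TBX5 peaks were unevenly spread along the Tbx5 gene. With the gene split at its middle, 17 of the 24 summits, 5 of them strong, fell in the 44.4 kb nearer the first base, and 7, of which 0 were strong, in the rest. The first 10 kb alone held 7 summits, the stretch from 20 to 30 kb held 0, and that from 30 to 40 kb held 6. The summit nearest the last base was 17.3 kb inside it, from a peak of 5.95-fold. No Tbx5 summit lay within 1 kb of either outer end of the annotated gene, beside 17.6% of all summits within 1 kb of a protein-coding gene end. The summit nearest to the first base was 3.02 kb inside it, from a strong peak of 14.7-fold. RefSeq lists 7 transcripts of Tbx5, 6 of them predicted models, and their separate starts were not used here. The counts along the gene therefore hold for the span of all 7. They do not say whether TBX5 occupies the start of a single transcript.

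The lncRNA gene Gm5563 overlaps Tbx5 and contained 4 of its 24 internal summits. A peak of 5.23-fold covered the farther-in Gm5563 start, with its summit 65 bp away. A summit of 3.59-fold lay 80 bp from the other start, in a peak that did not reach the start itself. Neither was strong. Gm5563 also contained 2 strong Tbx5 peaks, of 22.0 and 17.1-fold, over 1 kb from its starts.

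Tbx3, annotated from 119670534 to 119684724, had 6 peaks inside the gene, 9 before its first base and 2 beyond its last. Folds ran from 4.61 to 24.5 with a median of 7.41 (quartiles 5.54 and 9.27). Of the 17 peaks, 3 (17.6%) were strong, beside 17.6% of all peaks, and 3 were at or over 10-fold, beside 21.2%. The exact 95% binomial interval of the strong share was 3.80 to 43.4%, again for counting error only. The share of strong peaks thus equalled that of the list. The other 14 peaks ranged from 4.61 to 9.45-fold, with a median of 7.10.

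Tbx3 had its strongest peak on the first annotated base of the gene. Whether Tbx5 has a strong peak on a transcript start cannot be said, because its separate starts were not used. The Tbx3 peak ran from 119670216 to 119671709 with 23.7-fold enrichment and a −log10 q of 82.6, and its summit lay 276 bp inside the gene. It was 1494 bp wide, the 21st widest of the 28381 peaks, and also covered the start of Tbx3os1, which is 974 bp from the first base of Tbx3. The bases in capitals in the Tbx3os1 promoter printed above belong to it, but its summit, at 119670810, lies outside that window. A second peak of nearly the same height, from 119667464 to 119668458 (24.5-fold, −log10 q of 82.2), had its summit 2.83 kb before the gene. These peaks ranked 623rd and 626th by −log10 q, and no Tbx5 peak (0 of 30) was among the 1000 highest. The third strong Tbx3 peak, from 119681260 to 119681859, reached only 10.5-fold.

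The last base of Tbx3 was also flanked by peaks. Between 10.2 and 15.9 kb from the first base of the gene lay 7 summits, with folds from 4.95 to 10.5. Of these, 1 was 402 bp inside the last base (4.95-fold) and another 986 bp beyond it (9.27-fold). With the peak on the first base, Tbx3 had 3 of 17 summits within 1 kb of a gene end, which is near the 17.6% of all summits. The distal flank, from 44.1 to 95.2 kb before the gene, held 7 summits of 5.46 to 8.40-fold, none of them strong.

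**Figure D1:**
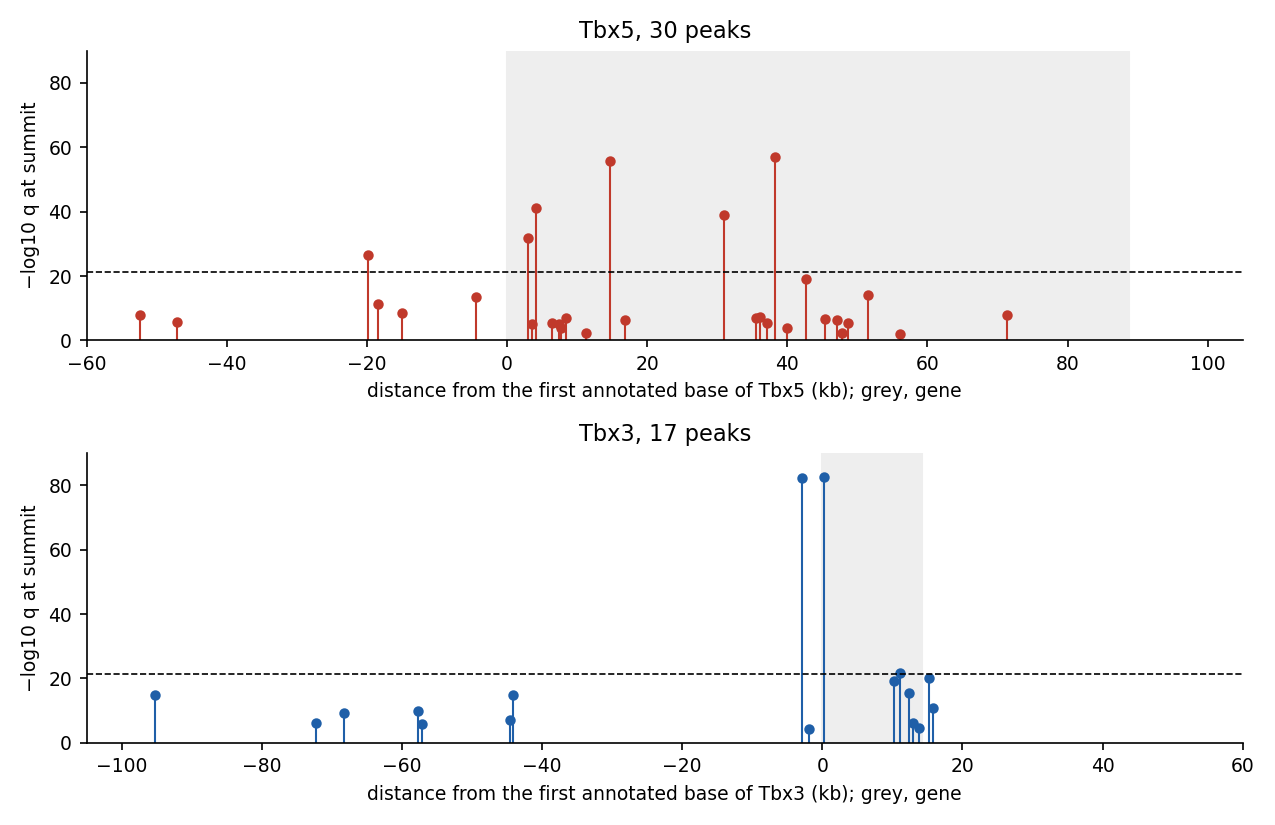
Peaks of Tbx5 (top) and Tbx3 (bottom) by distance of the summit from the first annotated base of the gene (x axis, kb) and −log10 q at the summit (y axis). Each stem is 1 peak, grey marks the gene and the dashed line is the lowest value of a strong peak, 21.3. The 6 Tbx5 peaks above the line spread over 58.1 kb, whereas the peaks of 82.6 and 82.2 of Tbx3 stand together near its first annotated base. The first base of Tbx5 bounds 7 transcripts, 6 of them predicted models, and their separate starts were not used. Whether a strong Tbx5 peak lies on a transcript start cannot be said.

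Both loci were dense in peaks. The stretch in which a summit is assigned to Tbx5 measured 244.6 kb and that of Tbx3 170.1 kb, which gave 12.3 and 9.99 peaks per 100 kb. Of the 6143 protein-coding genes with a stretch of at least 100 kb, 4 had a density at least as high as that of Tbx5, itself included, and 14 as high as that of Tbx3. The median over those genes was 0.788 peaks per 100 kb. Peak density at both loci was thus far above that median, while the share of strong peaks was near that of the list. High density was not particular to this pair. The paralogue Tbx4 had 8.13 peaks per 100 kb and Tbx2 had 34.5. The stretch of Tbx2, 34.8 kb, was too short to be among the 6143 genes. At Tbx5 the count rested largely on weaker peaks: 11 of its 30 (36.7%) were in the upper 14190 by −log10 q (50.0% of the list), against 11 of 17 (64.7%) for Tbx3. Among those upper peaks the median fold was 10.95 at Tbx5 and 9.02 at Tbx3, beside 9.23 over the list, so the order of the genes by median fold turned. With lncRNAs and all other RefSeq genes allowed to compete for peaks, Tbx5 had 25 and Tbx3 had 8.

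Summits lay close together. The median of the 29 gaps between consecutive Tbx5 summits was 2.31 kb (from 0.337 to 27.3 kb), and that of the 16 gaps of Tbx3 was 1.29 kb (from 0.463 to 41.3 kb). The median over the 28361 gaps of the whole list was 28.8 kb, which unlike the others takes in the gaps between loci. Summits of the paralogues were similarly close, with median gaps of 1.05 kb at Tbx2 and 2.39 kb at Tbx4. Another summit lay within 10 kb of 29 of 30 Tbx5 peaks and of 17 of 17 Tbx3 peaks, beside 50.1% of all peaks. Joining summits at most 10 kb apart gave runs of 11 and 13 peaks at Tbx5 and 10 at Tbx3. These 3 runs held 34 of the 47 peaks, while runs of 10 or more held 1.34% of all peaks. The minimum of 10 equals the size of the Tbx3 run, so all 3 runs meet it by that choice.

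The Tbx3 run, from 119667699 to 119686385 by its outer summits, spanned the whole gene in 18.7 kb and had 3 strong members and a median fold of 9.14. The Tbx5 runs spanned 21.3 and 25.1 kb, with 3 and 2 strong members and medians of 5.54 and 5.40. An interval of 14.1 kb without a summit separated them. The peak of highest fold stood in the run nearer the first base and the peak of highest −log10 q in the other.

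The domain shared by the genes was taken from the last base of Med13l, the protein-coding gene before Tbx3, to the first base of Rbm19, the one after Tbx5, a distance of 1.35 Mb from 118765439 to 120116512. Med13l encodes a subunit of the Mediator kinase module and Rbm19 an RNA-binding protein of the nucleolus. The domain held 85 peaks, 6.29 per 100 kb, of which 16 (18.8%) were strong, beside 17.6% of all peaks. Of the 85, the 47 peaks of the pair had 9 strong members, and 38 peaks, 7 of them strong, lay outside their stretches. The density was 42.3 peaks per 100 kb in the Tbx3 gene and 27.1 in the Tbx5 gene. It was 7.16 between the genes, 4.42 from Med13l to Tbx3 and 3.03 from Tbx5 to Rbm19. Peaks thus gathered within the annotated spans of the genes and were sparser in the flanks. For Tbx5 that span takes in predicted transcript models.

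**Figure D2:**
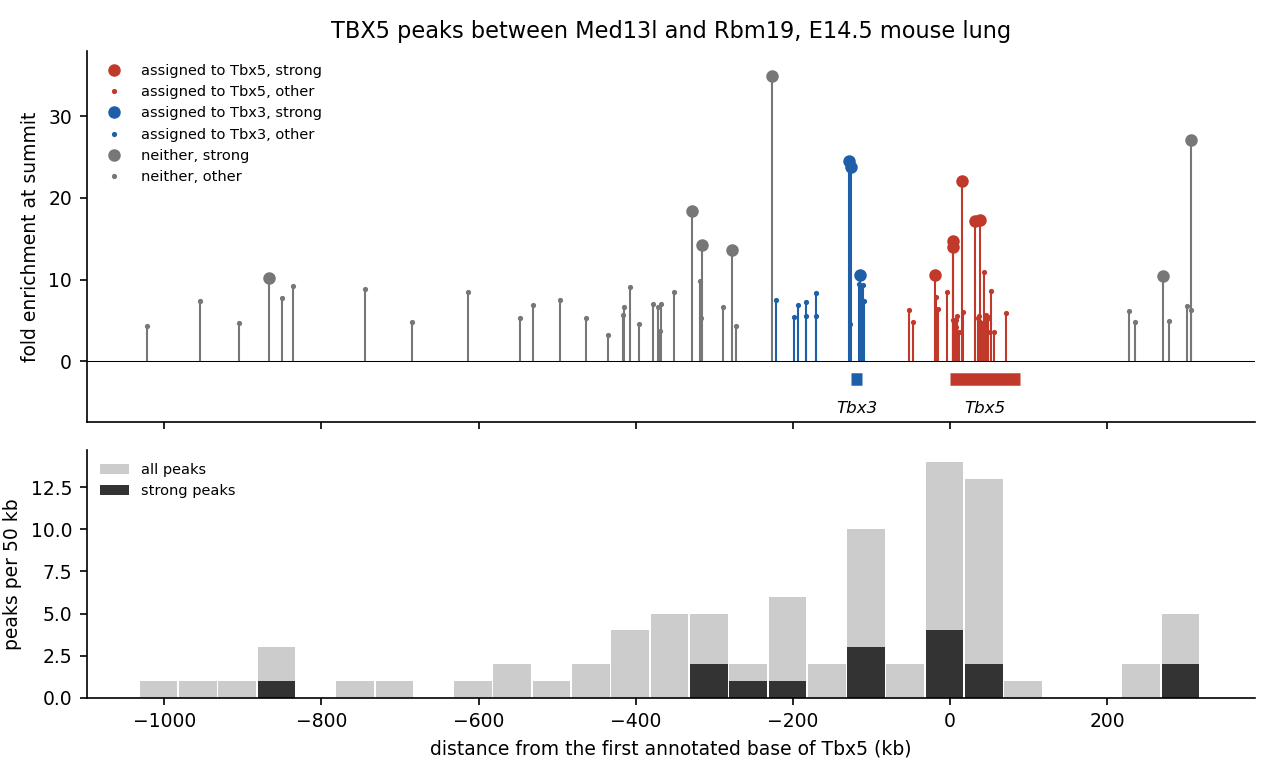
TBX5 peaks from Med13l to Rbm19 by distance from the first annotated base of Tbx5 (x axis, kb). The upper panel gives the fold at each summit (y axis), coloured by gene with large points for strong peaks and bars for the genes, and the lower panel the peaks and strong peaks in each 50 kb bin. Counts reach 10 in the bin at Tbx3 and 14 and 13 in those at Tbx5, and the highest peak, 34.9-fold, belongs to neither gene.

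The 111.8 kb between the genes were unevenly occupied. There were 8 summits there, 2 next to Tbx3 and 6 on the side nearer Tbx5, with folds from 4.74 to 10.6. The innermost Tbx3 summit, 1.66 kb beyond the gene (7.41-fold), and the innermost Tbx5 summit, 52.4 kb before the gene (6.22-fold), were 57.8 kb apart, with no peak in that interval. The 1 strong peak between the genes was 19.8 kb before Tbx5, from 119776465 to 119776887 (10.6-fold).

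Near the genes, the outer flanks of the pair differed. Beyond Tbx5 the next summit was 139.1 kb from its last base and nearer to Rbm19 (6.13-fold). The resulting gap of 156.4 kb between summits was the longest in the domain, and 13.7% of all gaps in the list were as long or longer. The 100 kb before Tbx3, by contrast, held 9 summits. Over the whole flanks the difference was smaller, with 40 peaks, 6 of them strong, in the 905.1 kb from Med13l to Tbx3 (4.42 per 100 kb) and 7 peaks, 2 of them strong, in the 231.3 kb from Tbx5 to Rbm19 (3.03 per 100 kb). Over 100 kb from the pair the order turned, with 3.85 peaks per 100 kb before Tbx3 and 5.33 towards Rbm19. Of the 40 before Tbx3, 9 were counted for Tbx3 above, while 22 had Tbx3 as their nearest gene but lay over 100 kb from it, with a median of 6.78-fold. Raising the limit to 1 Mb therefore took Tbx3 to 39 peaks, 7 of them strong, and left Tbx5 at 30.

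The highest peaks of the domain lay outside both stretches. A peak from 119569966 to 119570614 had 34.9-fold enrichment and a −log10 q of 134.2, which ranked it 204th in the list. Its summit was 100.2 kb before Tbx3, just past the limit, 176 bp inside one end of the lncRNA gene AW549542. The outermost Tbx3 peak within the limit, 95.2 kb before the gene, was 5.02 kb from it and had 7.53-fold enrichment. A peak from 120101843 to 120102602 (27.1-fold, −log10 q of 122.1) lay 14.2 kb before Rbm19. Of the 5 peaks of the domain at or over 20-fold, these were 2, Tbx3 had 2 and Tbx5 had 1.

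Noncoding genes of the domain overlapped its peaks. The domain held 21 lncRNA genes, and a TBX5 peak covered 5 of their 42 annotated ends (11.9%), beside 2.24% of all lncRNA gene ends. Besides those of AW549542, Tbx3os1 and Gm5563, these were an end of Gm31314 and an end of Gm16063. The Gm31314 end, with the summit of a strong peak (13.7-fold) 3 bp away, was opposite its annotated start, which no peak covered. The Gm16063 end was 9 bp from a summit of 5.54-fold. Of the 85 summits, 21 (24.7%) lay inside a lncRNA gene, beside 12.2% of all summits. The domain was also denser in peaks than the list as a whole, with 6.29 against 1.09 per 100 kb. The part of that in the share of covered ends was not tested. The share of summits inside lncRNA genes depends on how much of the domain those genes span, which was not measured. Of the 18 annotated starts of lncRNAs in the domain, a peak covered 2, beside 9.94% of all starts in the promoter table, and 3 had a summit within 1 kb, beside 17.8%. These 2 counts were near the shares of the table, which takes in starts of all kinds of genes. Some lncRNA genes of the domain had no start in it. Among them were AW549542 and Gm16063, each with an end covered by a peak.

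The paralogous pair on chromosome 11 had 8 strong peaks among the 22 of Tbx2 (12) and Tbx4 (10), where Tbx3 and Tbx5 had 9 among 47. The interval between Tbx2 and Tbx4 also held 8 summits, in 44.4 kb. Median folds were 8.58 at Tbx2 and 6.98 at Tbx4. The quartiles of all 4 genes overlapped, and no test of these differences was made. Of the 17 T-box genes, 11 (64.7%) had a peak and 4 (23.5%) a strong one, beside 41.7% and 11.9% of protein-coding genes, and the 4 with a strong peak were those of the pairs. None of the other 13 T-box genes had a strong peak, and 6 of the 13 had no peak. The rest had at most 6 peaks each, the 6 being at Tbx18, a factor of the epicardium and ureteric mesenchyme. Stretches of the 17 genes ran from 4.71 kb at Tbx6 to 244.6 kb at Tbx5. The part of stretch length in these shares was not tested.

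**Figure D3:**
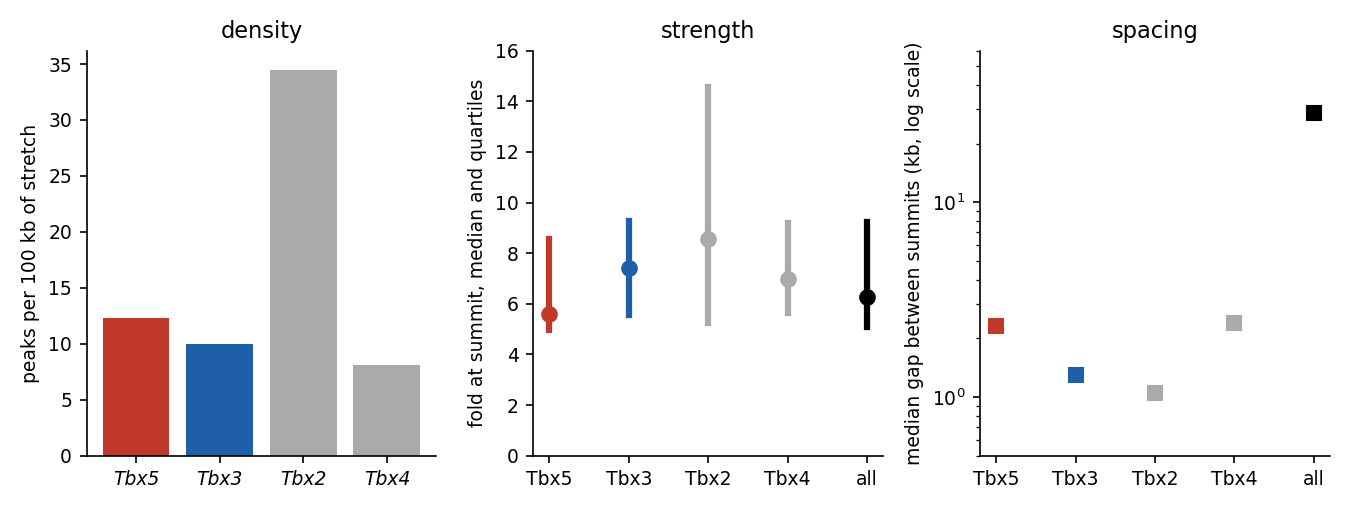
Peaks per 100 kb of the stretch assigned to each gene (left), median fold at the summit with quartiles as bars (middle) and median gap between consecutive summits on a log axis (right), for Tbx5, Tbx3, their paralogues Tbx2 and Tbx4, and in the middle and right panels all peaks. Median folds of 5.60 and 7.41 lie on either side of the 6.27 of all peaks (10.95, 9.02 and 9.23 among the upper 14190 peaks, where the order turns), while the gaps of 2.31 and 1.29 kb lie far under the 28.8 kb of the list.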

How the data were processed

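TBX5 ChIP-seq and input libraries of lung are represented by 1 list of 28381 peaks. Per the submitters' processing notes, Bowtie2, SAMtools and MACS2 were used, with build mm10. Versions, settings, pooling of the ChIP libraries and the role of the input were not given in the sources used here. The list has no header, so units follow from the MACS2 layout and the values. The authors deposited for each peak a fold (a ratio, ChIP signal over local background, taken at the summit) and the −log10 of its q-value. The score and the −log10 p-value that the authors also deposited were not used. The file's name says that blacklisted regions were removed. A fold depends on the depth of the libraries, which is unknown, so values were ranked only within the list.

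Starts are given 1-based, and summits are the start plus the deposited offset. Genes came from a RefSeq table of GRCm38.p6 (21631 protein-coding genes on these chromosomes), the assembly of mm10, without strand or exons. Promoters came from a RefSeq table of the same build, where starts are 50 bases inside the window. It held 32585 different starts. Neither Tbx5 nor Tbx3 was matched in it, so their promoters are not shown. Peak assignment was tested on simulated data. Counts, medians and exact 95% binomial intervals were computed with Python 3.11.15, pandas 2.3.3 and scipy 1.17.1. The intervals treat the peaks of a gene as independent, although they lie close together, and measure no spread between libraries or embryos.

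Single peaks were named by rule: for each gene the 3 with the highest −log10 q, the one with the highest fold, those at gene ends or annotated starts, the innermost and the outermost. The peaks that flank the limit, the highest of the domain and the noncoding genes were named after their values were seen. The genes, lists and settings were chosen with earlier results of these data known. Alternatives were the 14190 highest peaks, limits of 50 kb and 1 Mb, assignment to the nearest gene body, competition by all RefSeq genes, ranking by fold, 1000 strong peaks, peak middles in place of summits and a window of 5 kb at gene ends.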

Additional observations from a re-analysis of the deposited data

How the results depend on the processing

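Of the 58 recomputed values of 12 counts, densities and medians, 42 stayed within 1.5 times the reported value. Keeping the 14190 highest peaks by −log10 q left 11 peaks at Tbx5, with a median fold of 10.95, 4.50 peaks per 100 kb and a median gap of 7.32 kb. It left 11 peaks at Tbx3, with 6.47 peaks per 100 kb and a median gap of 6.50 kb, and 45 peaks in the domain. The median fold of Tbx3 was then 9.02, so the order of the genes by median fold turned. A limit of 1 Mb gave Tbx3 39 peaks, 7 strong, with a median gap of 7.11 kb. Letting all RefSeq genes compete gave Tbx3 8 peaks at 39.98 per 100 kb, and raised Tbx5 to 19.2 per 100 kb. Among the 1000 highest peaks Tbx5 had 0. Within 5 kb of an end of either gene lay 14 summits in place of 3. No paired analysis was possible because the list has no value per library. The list gives no error for any count, peaks may have been called on pooled libraries, and unknown depth limits what absence of a peak can say.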
